A study of Mus musculus with 8 samples.

Results

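CC chemokines are small secreted proteins that pull leukocytes along a gradient, and their name comes from a pair of adjacent cysteines near the start of the mature protein. In tumors, macrophages are a main source of the CC chemokines that bring blood monocytes into the tissue, where the monocytes can become macrophages in turn. The genes described here were Ccl2, Ccl3, Ccl4, Ccl6, Ccl7, Ccl8, Ccl9, Ccl12 and Ccl24, 9 of the 21051 genes listed, taken as the rows whose gene symbol equals a member. The first 8 have monocytes or macrophages among their targets, and Ccl24 (eotaxin-2) is best known as an attractant of eosinophils that macrophages make.

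The RNA came from tumor-associated macrophages (TAMs), sorted as CD45+F4/80+ cells from subcutaneous B16 melanomas 14 days after injection of the tumor cells. B16 is a pigmented mouse melanoma line that grows in C57BL/6 mice. The TAM-WT group was 4 wild-type littermates and the TAM-KO group 4 Colec11-/- mice, which lack the soluble lectin collectin-11 in the whole host and not in macrophages alone. According to its methods the study used male C57BL/6 mice of 8 to 10 weeks, unless stated otherwise. The labels give no further treatment, and the injected tumor cells were the same in both groups.

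Each library is 1 mouse. The 7 libraries with a full table held 16225362 to 17280267 reads on genes, and the table of TAM-KO replicate 1 lists 15740 of the genes, with all 9 chemokines among them. Colec11 had at most 4 reads in any library of either group, which is too few to check the genotype in these cells. All 10 macrophage markers were detected in the 7 libraries with a full table. Their summed level was 7513 to 9282 FPKM in the TAM-WT libraries and 8170.0 to 8929 FPKM in TAM-KO replicates 2 to 4. FPKM are fragments scaled to transcript length and to the mapped reads, so that levels can be compared between genes.

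The feature that defines the family is visible in the transcripts. The 30 bases around the codons of the adjacent cysteines, read from the coding sequences of GENCODE release M21 on GRCm38 and written 5′ to 3′ in frame with both cysteine codons in capitals, were as follows for 8 of the genes.
Ccl2: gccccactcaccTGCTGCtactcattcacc
Ccl7: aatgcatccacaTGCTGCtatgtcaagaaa
Ccl8: gctccagtcaccTGCTGCtttcatgtacta
Ccl12: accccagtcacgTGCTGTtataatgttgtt
Ccl4: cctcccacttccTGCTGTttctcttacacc
Ccl6: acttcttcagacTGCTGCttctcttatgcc
Ccl9: gactcttcagatTGCTGCctgtcctataac
Ccl24: atcccctcatctTGCTGCacgtcctttatt

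Each coding sequence held 1 such pair beyond codon 20, starting between codon 32 (Ccl8) and codon 57 (Ccl9). From that pair on, Ccl6 and Ccl9 had 6 cysteine codons and Ccl12 had 5, whereas the other 6 genes had 4. By identity over the aligned bases of the coding sequences, the closest relatives were Ccl8 and Ccl12 (206 of 291 aligned bases identical), Ccl6 and Ccl9 (243 of 344) and Ccl3 and Ccl4 (191 of 273). Despite this kinship, no stretch of 50 bases of any member's transcripts occurred in the transcripts of another gene, apart from 1.97% of the stretches of Ccl9, which other genes shared. In these GENCODE transcripts, a stretch of that length therefore marked a single member, Ccl9 partly excepted.

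Of the 9 chemokines, 4 were lower in TAM-KO than in TAM-WT and passed the test, against a background of 5.24% of the 12412 genes tested that were called lower. These were Ccl12, Ccl6, Ccl4 and Ccl3, with TAM-KO means between 44.8% and 50.6% of the TAM-WT means in FPKM. None was called higher. Of the other 5, Ccl24, Ccl9, Ccl2 and Ccl7 had lower means in TAM-KO without passing, and Ccl8 had nearly the same mean in both groups. The median log2 fold change of the 9 was -1.10, and that of all genes tested was 0.00. The test was edgeR's quasi-likelihood test on expected counts, and the threshold for a call was 0.05 for the adjusted p, computed across every gene tested. With a fold change of at least 2 required as well, the same 4 were called, beside 1.12% of all genes called lower under that rule. Every TAM-KO library was below every TAM-WT library for 2 of the 9, Ccl12 and Ccl6, which was so for 4.8% of the 9396 genes tested on all 8 libraries. In bulk RNA, fewer cells that make a chemokine and less RNA per cell cannot be told apart.

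**Figure D1:**
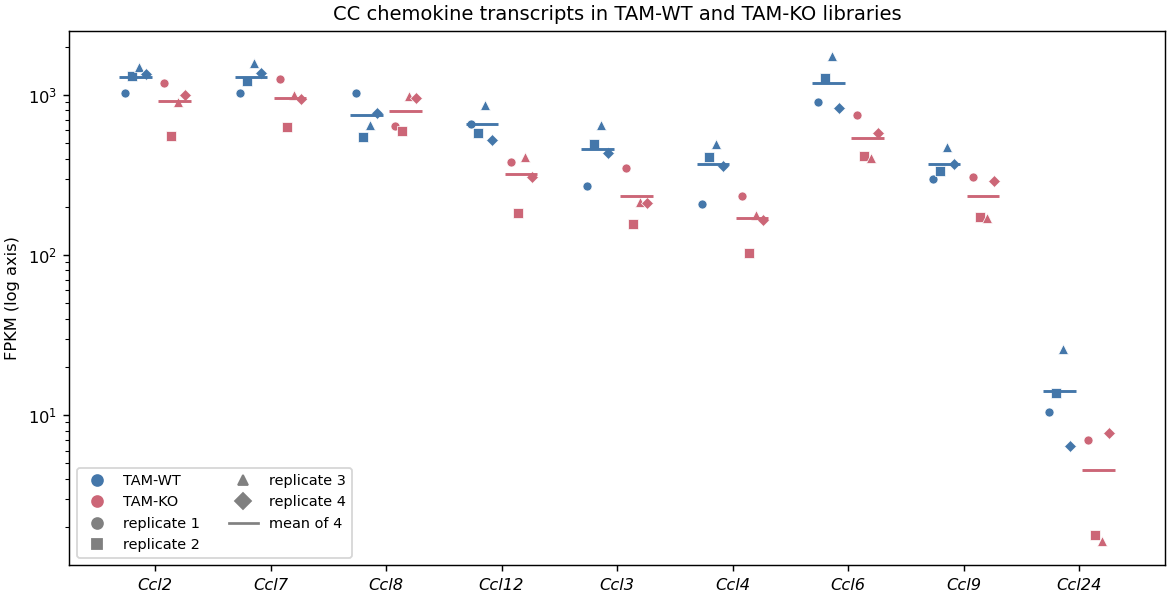
FPKM of the 9 chemokines (log axis) in each of the 4 TAM-WT and 4 TAM-KO libraries, with a symbol for each replicate number and a line at the mean of 4. The groups are apart for Ccl12 and Ccl6, overlap by TAM-KO replicate 1 for Ccl2, Ccl3, Ccl4, Ccl7 and Ccl9, and are mixed for Ccl8. Ccl24 lies far below the others.

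Ccl2, Ccl7, Ccl8 and Ccl12 form the monocyte chemoattractant protein (MCP) group. Ccl2, Ccl7 and Ccl12 act on CCR2, the receptor that inflammatory monocytes use to leave the bone marrow and enter tissue, whereas mouse Ccl8 is known to act on CCR8. Ccl12 was at 659.6, 574, 866 and 519 FPKM in TAM-WT replicates 1 to 4, and at 382, 183, 407 and 307 FPKM in TAM-KO replicates 1 to 4. The highest TAM-KO library stood below the lowest TAM-WT library. Its log2 fold change was -1.12 (SE 0.25, adjusted p = 0.0295, edgeR).

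Ccl2 was at 1023, 1315, 1498 and 1356 FPKM in TAM-WT and at 1194, 555, 908 and 997 FPKM in TAM-KO, and Ccl7 was at 1026, 1217, 1571 and 1361 FPKM in TAM-WT and at 1251, 632, 1004 and 947 FPKM in TAM-KO. For both genes 3 of 4 TAM-KO libraries were below the lowest TAM-WT library, and TAM-KO replicate 1 lay within the TAM-WT range. Their log2 fold changes, -0.61 (SE 0.22) for Ccl2 and -0.54 (SE 0.21) for Ccl7, did not pass (adjusted p = 0.102 and 0.123, edgeR). Ccl2 passed only with DESeq2 in place of edgeR (adjusted p = 0.0412), and Ccl7 passed in none of the 17 alternatives.

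Ccl8 was at 1029, 545, 651 and 771 FPKM in TAM-WT and at 639, 596, 983 and 956 FPKM in TAM-KO. Its groups were fully mixed, and its highest library was TAM-WT replicate 1, in which 5 of the 9 chemokines had their lowest TAM-WT level. The log2 fold change was 0.02 (SE 0.22, adjusted p = 0.970, edgeR). It turned to as low as -0.12 and rose to as high as 0.18 when 1 library was left out.

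Ccl8 and Ccl12, which are close relatives by coding sequence, are also neighbours on the genome, and their promoters could be compared. In the RefSeq table for GRCm38.p6 both lie on the plus strand of chromosome 11, Ccl12 at chr11:82101845-82103399 and Ccl8 at chr11:82115185-82116799, 11.8 kb apart. The 250 bases before each start are given below, 5′ to 3′, with the TATAAA of each in capitals (Ccl12 chr11:82101595-82101844 and Ccl8 chr11:82114935-82115184).
Ccl12: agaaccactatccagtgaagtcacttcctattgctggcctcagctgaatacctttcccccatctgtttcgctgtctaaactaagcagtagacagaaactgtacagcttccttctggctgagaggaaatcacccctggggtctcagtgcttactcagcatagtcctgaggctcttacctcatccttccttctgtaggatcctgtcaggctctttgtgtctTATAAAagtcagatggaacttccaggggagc
Ccl8: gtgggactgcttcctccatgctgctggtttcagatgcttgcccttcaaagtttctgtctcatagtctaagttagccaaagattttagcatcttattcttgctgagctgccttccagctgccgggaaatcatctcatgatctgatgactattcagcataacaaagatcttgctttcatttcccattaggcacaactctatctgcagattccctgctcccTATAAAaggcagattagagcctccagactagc

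The TATAAA began 31 bases before the start of Ccl12 and 32 bases before that of Ccl8, and 13.6% of the 32851 promoters of the RefSeq table held it on either strand within their 300 bases. After alignment 147 bases were identical, or 58.8% of the 250, compared with 48.4% to 55.2% for the other 9 pairs among the 5 members found in the table (Ccl3, Ccl6, Ccl8, Ccl9 and Ccl12). Neither promoter held the NF-kB consensus, an AP-1 site (TGANTCA), a C/EBP site (TTGCNNCAA) or a GAS element (TTCNNNGAA) on either strand. These sites occurred in 8.46%, 7.81%, 2.08% and 8.3% of all promoters. Among the 5 members only Ccl9 held any of them, an AP-1 site from 53 to 47 bases and an NF-kB consensus from 35 to 26 bases before its start. These are matches of letters within a short window and not measured binding.

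Within a library, Ccl8 stood at 1.56, 0.950, 0.752 and 1.49 times the FPKM of Ccl12 in TAM-WT replicates 1 to 4, and at 1.67, 3.25, 2.42 and 3.11 times in TAM-KO replicates 1 to 4. The ratio was higher in every TAM-KO library than in any TAM-WT library. On the log2 scale it averaged 0.18 ± 0.51 in TAM-WT and 1.34 ± 0.44 in TAM-KO (SD, n = 4 each), with a two-sided exact permutation p of 0.0286, the smallest that 4 against 4 libraries can give. Of the 36 ratios between members, 3 reached that value, and none passed Benjamini-Hochberg adjustment over the 36 (adjusted p = 0.220 at the lowest). The other 2 were Ccl2 to Ccl4 and Ccl7 to Ccl4. Ccl2 stood at 3.04 to 4.90 times the FPKM of Ccl4 in TAM-WT and at 5.10 to 6.03 times in TAM-KO. A different response of Ccl8 and Ccl12, or of any other pair, was thus not established at this number of mice.

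Ccl3 and Ccl4 encode MIP-1 alpha and MIP-1 beta. They attract monocytes, macrophages and activated T cells and NK cells, and Ccl3 acts on CCR1 among others. Both members of this group passed the test. Ccl4 was at 209, 409.8, 492.5 and 360.0 FPKM in TAM-WT replicates 1 to 4, and at 234, 103, 177 and 165 FPKM in TAM-KO replicates 1 to 4. Ccl3 was at 271, 491, 648 and 432 FPKM in TAM-WT and at 351, 157, 214 and 210.3 FPKM in TAM-KO. The pattern was the same in both genes, with TAM-WT replicate 1 far below the other TAM-WT libraries and TAM-KO replicate 1 above it.

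The log2 fold change was -1.22 (SE 0.30, adjusted p = 0.0357, edgeR) for Ccl4 and -1.10 (SE 0.30, adjusted p = 0.0488, edgeR) for Ccl3. Without TAM-WT replicate 1 they were -1.42 and -1.29 (adjusted p = 0.0148 and 0.0221, edgeR). The level of Ccl3 over that of Ccl4 differed little between groups, with a log2 ratio of 0.32 ± 0.07 in TAM-WT and 0.45 ± 0.17 in TAM-KO (SD, n = 4 each, two-sided exact permutation p = 0.286). The genes lie back to back on chromosome 11, Ccl3 at chr11:83647843-83649378 on the minus strand and Ccl4 at chr11:83648624-83664683 on the plus strand in the RefSeq table. These intervals overlap by 755 bases, whereas in GENCODE they do not overlap. The RefSeq intervals span whole genes, and whether exons of the 2 genes overlap there was not tested. Whether the counting used strand is not given in the sources used here, so the effect of the overlap on either count is not known.

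Ccl6 (C10) and Ccl9 (MIP-1 gamma) are CCR1 ligands of rodents that macrophages make in quantity, and are the members with 6 cysteine codons. Ccl6 was at 907, 1277, 1761 and 826 FPKM in TAM-WT replicates 1 to 4, and at 749, 412, 402 and 575 FPKM in TAM-KO replicates 1 to 4. As for Ccl12, the groups did not overlap, although TAM-KO replicate 1 came near the lowest TAM-WT library. The log2 fold change of -1.27 (SE 0.29) passed (adjusted p = 0.0305, edgeR). Ccl9, whose gene lies 9.2 kb from that of Ccl6 on the same strand, was at 296, 333, 475 and 372 FPKM in TAM-WT and at 305, 173, 171 and 290.2 FPKM in TAM-KO. Its groups overlapped through TAM-KO replicate 1 alone. With a log2 fold change of -0.77 (SE 0.25) it did not pass (adjusted p = 0.0711, edgeR), and it did so without TAM-WT replicate 2 (adjusted p = 0.0466, edgeR) and with DESeq2 (adjusted p = 0.0147).

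Ccl24 was the least abundant member and had the lowest log2 fold change of the 9, but also the widest spread. It was at 10.48, 13.8, 25.9 and 6.38 FPKM in TAM-WT and at 7.01, 1.79, 1.64 and 7.77 FPKM in TAM-KO, on 23 to 342 reads a library. TAM-KO replicates 2 and 3 lay far below the rest, and TAM-KO replicates 1 and 4 lay above the lowest TAM-WT library. The log2 fold change of -1.74 (SE 0.55) did not pass (adjusted p = 0.0696, edgeR), nor did it in any of the 17 alternatives. Unlike the other members it lies on chromosome 5 (chr5:135569935-135573123, GRCm38.p6).

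**Figure D2:**
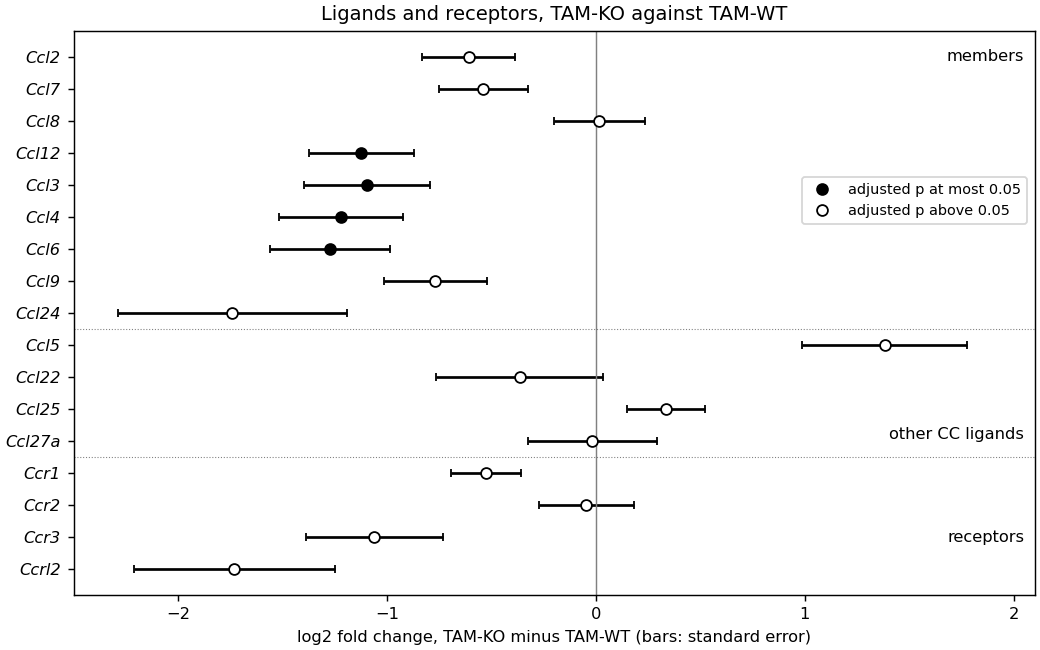
Log2 fold change (TAM-KO minus TAM-WT) with its standard error for the 9 members, the 4 other CC chemokines tested and the 4 receptors shown. Filled points passed at an adjusted p of at most 0.05 (edgeR), and these are Ccl12, Ccl3, Ccl4 and Ccl6. Ccl8 sits at 0.02 and Ccl5 lies on the opposite side of 0 at 1.38.

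The members spanned a wide range of levels. In TAM-WT the means were highest for Ccl2 (1298 ± 199 FPKM) and Ccl7 (1294 ± 229.8 FPKM), followed by Ccl6 (1193 ± 427 FPKM), Ccl8 (749 ± 208 FPKM), Ccl12 (654 ± 152 FPKM), Ccl3 (461 ± 156 FPKM), Ccl9 (369 ± 77.0 FPKM), Ccl4 (368 ± 119 FPKM) and Ccl24 (14.2 ± 8.42 FPKM; SD, n = 4). Neighbours changed places between TAM-WT libraries throughout this order, except that Ccl12 exceeded Ccl3 and Ccl4 exceeded Ccl24 in all 4. Ccl6 exceeded Ccl8 in 3 of 4 TAM-WT libraries. In TAM-KO the order was Ccl7 (959 ± 254 FPKM), Ccl2 (913 ± 267 FPKM), Ccl8 (793 ± 204 FPKM), Ccl6 (535 ± 163 FPKM), Ccl12 (319.8 ± 100.4 FPKM), Ccl9 (235 ± 72.9 FPKM), Ccl3 (233 ± 82.8 FPKM), Ccl4 (169.7 ± 53.9 FPKM) and Ccl24 (4.55 ± 3.29 FPKM; SD, n = 4). There Ccl8 exceeded Ccl6 in 3 of 4 libraries. Neighbours kept their places in all 4 TAM-KO libraries for Ccl12 over Ccl9, Ccl3 over Ccl4 and Ccl4 over Ccl24 only. The ratio of Ccl6 to Ccl8 overlapped between the groups (two-sided exact permutation p = 0.0857, adjusted p = 0.220), so a change of their order was not established.

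Summed over the 9 genes, the level reached 5431, 6176, 7988 and 6003 FPKM in TAM-WT replicates 1 to 4, and 5112, 2814, 4266 and 4456 FPKM in TAM-KO replicates 1 to 4. Every TAM-KO library was below every TAM-WT library in this sum, which the most abundant genes dominate. In the 7 libraries with a full table, the members made up 0.909% to 1.34% of all FPKM in TAM-WT and 0.487% to 0.762% in TAM-KO. The same libraries stood at the ends for most genes. TAM-WT replicate 3 had the highest level of all 8 libraries in 8 of the 9 genes, TAM-KO replicate 2 had the lowest in 5 and TAM-KO replicate 3 in 3, and TAM-KO replicate 1 was the highest of its group in 6.

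Over the 17 alternatives Ccl12 and Ccl6 passed in 13 each, Ccl4 in 11 and Ccl3, which stood closest to the threshold, in 6. The calls rested on few libraries. When TAM-WT replicate 3 was left out, 0 of the 9 passed in edgeR, and the same held when TAM-KO replicate 2 was dropped and when TAM-KO replicate 3 was. In these fits 151, 77 and 77 genes were called in all, in place of 1218. The log2 fold changes of Ccl12, Ccl6, Ccl4 and Ccl3 without TAM-WT replicate 3 were -0.91, -0.97, -1.01 and -0.84 (adjusted p = 0.0798, 0.0723, 0.0995 and 0.130). Without TAM-KO replicate 2 they were -0.93, -1.16, -1.04 and -0.94 (adjusted p = 0.0719, 0.106, 0.105 and 0.144). Without TAM-KO replicate 3 they were -1.25, -1.15, -1.24 and -1.05 (adjusted p = 0.0751, 0.0978, 0.103 and 0.136). Without TAM-WT replicate 4 and without TAM-KO replicate 4, Ccl12 and Ccl6 passed. Without TAM-KO replicate 1, whose table is partial, Ccl3, Ccl4 and Ccl6 passed and Ccl12 had an adjusted p of 0.0518. Apart from Ccl8, the log2 fold change of each member was negative in all 8 fits.

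**Figure D3:**
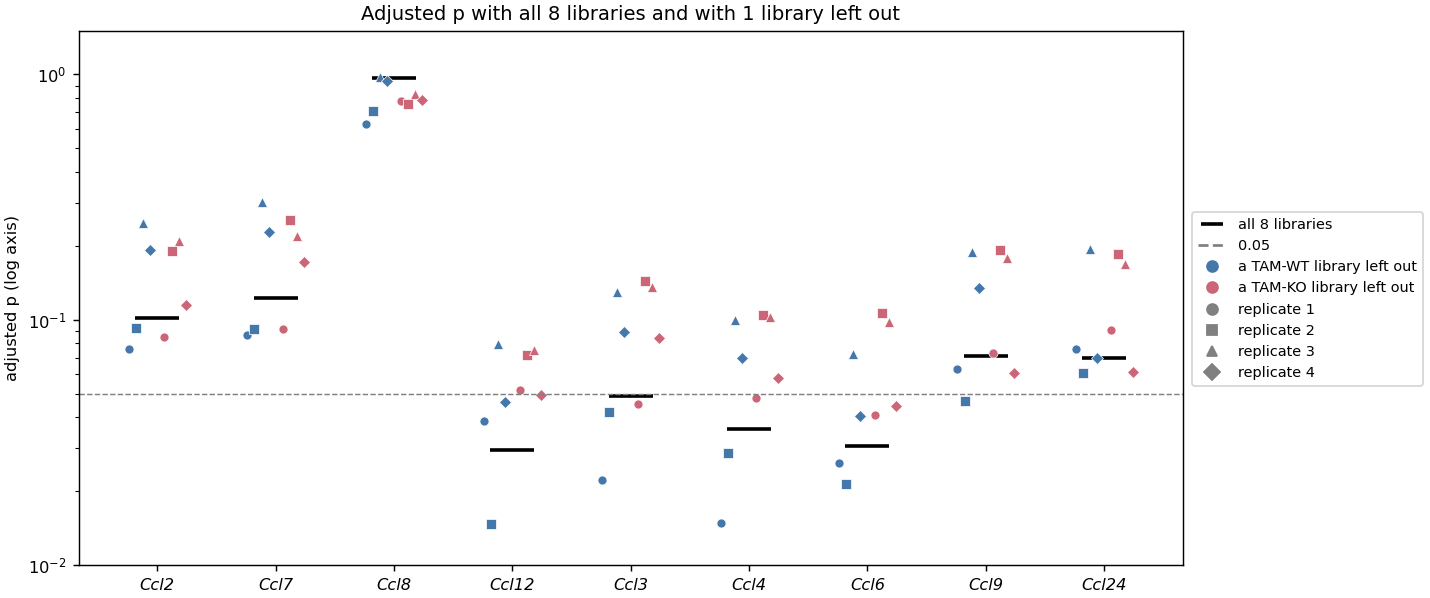
Adjusted p (log axis, edgeR) of each chemokine with all 8 libraries (black bar) and with 1 library left out (points, by group and replicate number). Points for TAM-WT replicate 3, TAM-KO replicate 2 and TAM-KO replicate 3 lie above the dashed line at 0.05 for every gene. Of the other points, those of Ccl12, Ccl3, Ccl4 and Ccl9 lie on both sides of it. Those of Ccl6 lie below it, and those of Ccl2, Ccl7, Ccl8 and Ccl24 lie above it.

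Other CC chemokines were measured beside the members. Of the 12 listed, 4 were tested, and 0 of them was called in edgeR, beside 9.81% of all genes called in either direction. The lowest adjusted p of the 4 was that of Ccl5 (RANTES), an attractant of T cells and monocytes that T cells and NK cells also make. It was at 51.1, 9.61, 13 and 24.4 FPKM in TAM-WT and at 65.9, 80.3, 63.0 and 58.0 FPKM in TAM-KO, with no overlap (log2 fold change 1.38, SE 0.39, adjusted p = 0.0537, edgeR). It passed in 7 of the 17 alternatives. In the RefSeq table Ccl5 lies 42.4 kb from Ccl9, on the side away from Ccl6. Ccl22, Ccl25 and Ccl27a had log2 fold changes of -0.36, 0.34 and -0.02, all with means below 10 FPKM. Ccl11, which lies between Ccl7 and Ccl12, was at most 0.21 FPKM in every library.

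Receptors of these chemokines were measured in the same cells. Of Ccr1, Ccr2, Ccr3 and Ccr8, 3 were tested, on 3 TAM-KO libraries since the partial table of TAM-KO replicate 1 lacks them. In edgeR 0 was called, beside the 9.81% of all genes called in either direction. Ccr2 had a log2 fold change of -0.05 (SE 0.23, adjusted p = 0.917, edgeR), with every TAM-KO library within the TAM-WT range. Ccr1, the receptor of Ccl3, Ccl6 and Ccl9, was at 65.9, 49.6, 74.3 and 68.3 FPKM in TAM-WT and at 45.1, 46.5 and 53.7 FPKM in TAM-KO replicates 2 to 4 (log2 fold change -0.53, SE 0.17, adjusted p = 0.0797, edgeR). Ccr3, the receptor of Ccl24, was between 0.98 and 3.31 FPKM without TAM-KO replicate 1 (log2 fold change -1.06, SE 0.33, adjusted p = 0.0735, edgeR). With TAM-KO replicate 1 filled from the series table, its log2 fold change was -0.89 (SE 0.31, adjusted p = 0.0901, edgeR). Of the atypical receptors only Ccrl2, which does not signal and is best known for holding chemerin at the cell surface, was tested. It was at 35.9, 108, 150.5 and 102 FPKM in TAM-WT and at 57.0, 14.6, 23.5 and 34.6 FPKM in TAM-KO (log2 fold change -1.73, SE 0.48, adjusted p = 0.0506, edgeR). As for Ccl3 and Ccl4, TAM-WT replicate 1 was the low and TAM-KO replicate 1 the high library of its group. DESeq2 called Ccl5, Ccr1, Ccr3 and Ccrl2.

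Below the receptors, 25 genes of G protein, phosphoinositide and cytoskeletal signalling were tested, of which 3 were called lower and 1 higher, beside the 9.81% of all genes called in either direction. Pik3cg, the catalytic subunit of the phosphoinositide 3-kinase that chemokine receptors activate through G proteins, fell from a mean of 22.3 to 14.1 FPKM (log2 fold change -0.80, SE 0.09, adjusted p = 0.00402, edgeR). Gng2 and Gnai3, which encode a G protein gamma and an inhibitory alpha subunit, had log2 fold changes of -0.52 and -0.37 on 3 TAM-KO libraries (adjusted p = 0.0329 and 0.0415, edgeR). Plcb3, a phospholipase C, rose with a log2 fold change of 0.24 (adjusted p = 0.0442, edgeR). The median of the 25 was -0.08.

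The genes whose profile over the 7 libraries with a full table was nearest to the mean profile of the members were Clec4n, Gadd45a, Lrp12, Ptger4 and Papss2. Likeness was the root-mean-square difference of centred log2(FPKM + 1) among 8687 genes with a mean of at least 5 FPKM, and the 5 had values of 0.083, 0.151, 0.159, 0.161 and 0.162. Clec4n, which encodes the C-type lectin Dectin-2, was at 266, 283, 381 and 255 FPKM in TAM-WT and at 99.9, 148 and 185 FPKM in TAM-KO replicates 2 to 4. Ptger4 encodes the prostaglandin E receptor EP4. On the same measure Ccl9 and Ccl2 were the members nearest to the mean profile (0.186 and 0.189), and Ccl24 and Ccl8 were the farthest (0.657 and 0.701). Each member is part of that mean, so its value is not on equal terms with those of the other genes. All of these genes share the libraries and the scale, and the measure is a description.

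Marker lists of other cells are given for the 7 libraries with a full table, and only some of their sums were apart between the groups. Summed over 11 markers of T cells and NK cells, the level was 29.1, 4.42, 6.27 and 4.81 FPKM in TAM-WT and 92.6, 74.7 and 31.2 FPKM in TAM-KO replicates 2 to 4, and Nkg7 and Gzmb were the most abundant of them. Nkg7 was called higher in TAM-KO (log2 fold change 3.38, adjusted p = 0.0323, edgeR). The 3 TAM-KO libraries were above the 4 TAM-WT libraries, and TAM-KO replicate 2, where the chemokine sum was lowest, had the highest. The 8 melanoma cell markers summed to 2592 to 5186 FPKM in TAM-WT and to 4581 to 5869 FPKM in TAM-KO, with Pmel and Dct leading, so RNA of melanocytic origin was plentiful in both groups. Each of the 8 had a positive log2 fold change, from 0.10 to 0.82, and Sox10 was called higher in TAM-KO (edgeR). TAM-WT replicate 2 had the highest melanoma sum of its group. The 9 monocyte markers summed to 768 to 1414 FPKM in TAM-WT and to 672 to 741 FPKM in TAM-KO. F13a1 and Fn1, the most abundant of them, weigh most in this sum. Their means were 391 and 225 FPKM in TAM-WT and 142 and 78.5 FPKM in TAM-KO replicates 2 to 4. The median log2 fold change of the 9 was -0.05, so the lower sum does not describe the list as a whole. Within that list F13a1 (log2 fold change -1.48) and Fn1 (-1.63) were called lower in edgeR and Ly6c2 (1.79) and Plac8 (1.41) higher. Of the macrophage markers Mrc1 was called lower (log2 fold change -1.13, edgeR), and C1qa and C1qc, the most abundant, had log2 fold changes of 0.13 and 0.09.

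**Figure D4:**
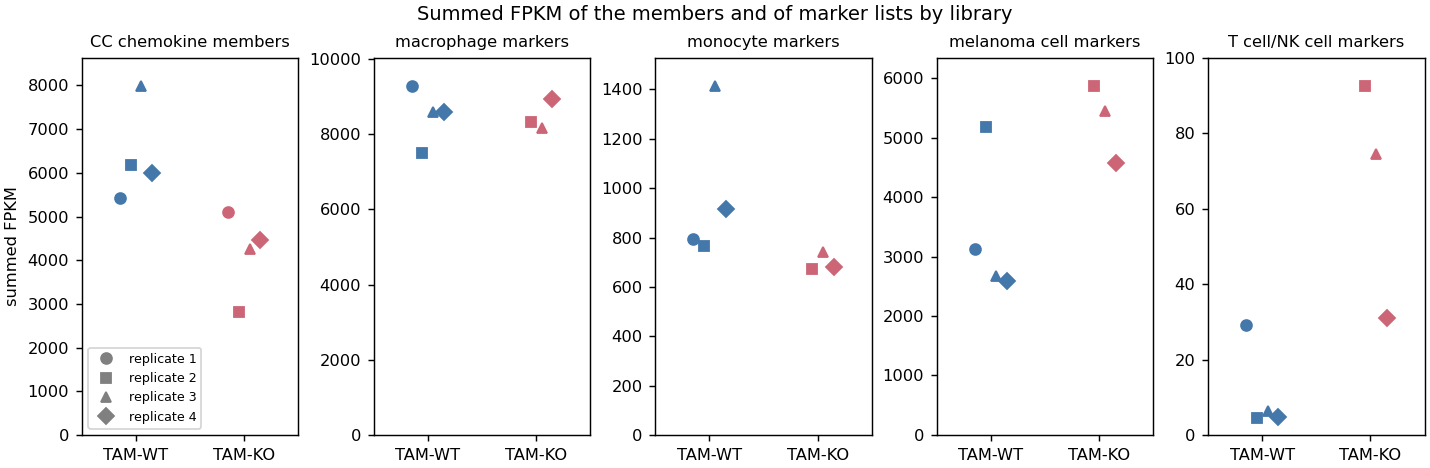
Summed FPKM (linear axes from 0) of the 9 chemokines in 8 libraries and of 4 marker lists in the 7 libraries with a full table, by group and replicate number. The chemokine sum is lower in every TAM-KO library, the macrophage sums overlap, and the T cell and NK cell sums are higher in TAM-KO. The monocyte sums, in which F13a1 and Fn1 weigh most, are lower in TAM-KO. The melanoma sums overlap through TAM-WT replicate 2.

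The remaining lists were summed in the same way. Neutrophil markers summed to 47.2 to 74.3 FPKM in TAM-WT and 60.2 to 73.2 FPKM in TAM-KO, with 1 of the 10 at 0 in all 7 libraries. S100a8 was called higher in TAM-KO (log2 fold change 2.68, edgeR). Mmp8 and Csf3r, the most abundant of the list, had log2 fold changes of -1.22 and 0.58 and were not called (adjusted p = 0.0603 and 0.0737, edgeR). Dendritic cell markers summed to 15.5 to 32.5 and 25.0 to 25.7 FPKM, with Xcr1 called higher in TAM-KO (log2 fold change 1.78, edgeR). The most abundant of these, Fscn1 and Ccr7, had log2 fold changes of 0.24 and -0.36 and were not called. B cell markers summed to 4.44 to 7.19 and 5.75 to 10.9 FPKM, and endothelial markers to 3.52 to 7.0 and 7.08 to 11.3 FPKM. Fibroblast markers summed to 2.15 to 6.51 and 2.90 to 4.45 FPKM, mast cell markers to 1.74 to 3.03 and 1.98 to 2.98 FPKM, and eosinophil markers to 2.04 to 3.64 and 1.2 to 1.84 FPKM. The mast cell sum was almost all Kit, at 1.74 to 3.03 FPKM. The eosinophil sum was mostly Ccr3, given above as a receptor. Of the 5 eosinophil markers with a value, 4 were below 1 FPKM in all 7 libraries. The part of any of these cells in the levels of the chemokines was not tested.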

How the data were processed

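RNA of sorted TAMs of 4 TAM-WT and 4 TAM-KO mice was sequenced on BGISEQ-500, and each sample's group and replicate number were read from the labels. The authors deposited expected counts per gene, estimated by RSEM and not normalized, beside FPKM values that the authors scaled to gene length and mapped reads. The submitters' processing notes name HISAT2 2.0.4, Bowtie2 2.2.5, RSEM 1.2.12 and GRCm38.p6. The deposited comparison table also holds log2 ratios, p-values and q-values of the authors, which were not used.

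The 9 members were taken from the 8 sample tables. The gene lists and members were chosen with earlier results of these data known. After rounding, the expected counts were compared by edgeR 4.0.16 under R 4.3.3 (TMM, filterByExpr, glmQLFit, glmQLFTest, two-sided) with Benjamini-Hochberg adjustment over the 12412 genes tested. Genes with a value in all 8 tables (9396 tested) entered a fit of 8 libraries, and the rest a fit of the 7 without TAM-KO replicate 1, whose table does not list 5311 genes. Standard errors were derived from the edgeR test, as the absolute log2 fold change divided by the square root of the F statistic. For that library 629 values displaced from their genes and, in all tables, 2 unusable lines were left out. The fit was tested on simulated data. Replicates differed by more than sampling noise, and none was a repeat of another.

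The rule for named genes was all 9 members, each tested receptor and other CC chemokine, signalling genes that passed, the 5 genes nearest in profile (centred log2(FPKM + 1), mean FPKM of at least 5) and the 2 most abundant markers of a list. Marker genes that passed were named after their values were seen. Ratios between members were compared with an exact permutation test in scipy 1.17.1, a test added with the values known. Sequences came from GENCODE M21 and from RefSeq tables of GRCm38.p6, and were aligned with Biopython 1.88. The alternatives were DESeq2 1.42.0, DESeq2 size factors in edgeR, total counts, no filter, at least 10 counts in every library, limma 3.58.1 on log2(FPKM + 1) and log2(FPKM + 0.1), a replicate block, the partial table filled from the series table, each library left out, and a fold change of at least 2. Some genes of the lists and 1 sequence are not reported here.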

Additional observations from a re-analysis of the deposited data

Results flagged for a closer look

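Among 31 groups of 4 libraries of the chemokines and receptors tested, 1 held a library far from the other 3, and chance flags about 1 in 20 such groups. Ccl27a, an attractant of skin-homing T cells, was at 2.46 FPKM in TAM-WT replicate 2 and at 1.26, 1.36 and 1.42 FPKM in the other TAM-WT libraries, on 15 reads against 7 to 9.71. No library of any of the 9 members stood apart from its group by this measure.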

How the results depend on the processing

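Apart from Ccl8, the members had lower values in TAM-KO under each of the 17 alternatives. Ccl8 ran from -0.116 to 0.175 when 1 library was left out. With 4 members called, the other fits gave 3 to 6, apart from the replicate block, under which 1 was called (Ccl12), and the fits without 1 library, which gave 0 to 5. The labels give no pairing of the same-numbered libraries, whose deviations had correlations of -0.33, 0.02, -0.23 and 0.26 over genes. Whether same-numbered libraries shared a batch was not tested. Over all genes 1218 were called, 2252 with DESeq2, 314 with a fold change of at least 2 as well, and 77 to 2756 without 1 library (77 without TAM-KO replicate 2 or 3, and 2756 without TAM-WT replicate 2). Of the receptors and other CC chemokines 0 was called, 4 with DESeq2, 2 with total counts, 3 without a filter, 1 with limma on log2(FPKM + 1) or log2(FPKM + 0.1), 1 with the replicate block and 0 to 3 without 1 library. The direction of Ccl27a turned with total counts (0.064), limma (0.003 and 0.011) and the replicate block (0.005), and ran from -0.161 to 0.215 without 1 library. That of Ccr2 turned with total counts (0.071), limma (0.104 and 0.107) and the replicate block (0.106), and ran from -0.232 to 0.058. The causes were not tested. The members other than Ccl24 had at least 682 reads in each library, and Ccl24 had as few as 23.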

Other observations

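Ccr8, the receptor on which mouse Ccl8 acts, was below the filter on low counts. It had 1, 1, 1 and 2 reads in TAM-WT replicates 1 to 4 and 11, 10 and 6 reads in TAM-KO replicates 2 to 4. Ccr8 was called in edgeR when the filter was dropped and when TAM-KO replicate 4 was left out, on these few reads. Ccl1, the other known ligand of CCR8, had 12, 0, 0 and 0 reads in TAM-WT and 5, 21, 4 and 4 reads in TAM-KO, also below the filter.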
